A study of Mus musculus with 9 samples.

Results

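Runx1, Runx2, Runx3, Sp7, Mef2c and Atf4 encode transcription factors of the osteoblast lineage, and Cbfb encodes a partner of the RUNX factors. These 7 genes were chosen by name from the 43548 gene identifiers of an FPKM table, and all 7 were among the 18714 genes with a mean of at least 0.5 FPKM that were tested. FPKM counts fragments of a gene per kilobase of transcript and per 1000000 fragments, so it puts genes of different length on 1 scale within a library. Levels between libraries also depend on scaling, since FPKM summed differently in each library. The table holds 9 RNAseq libraries from mouse embryos at E14.5, with 3 from the cranial vault of MCAGF8 embryos, 3 from that of controls and 3 from the cranial base of controls, and each library pools the RNA of 3 tissue samples. MCAGF8 embryos carry Msx2-Cre and CAGF8, a Rosa26 allele in which Cre removes a stop so that the CAG promoter drives Fgf8. Msx2-Cre acts in the surface ectoderm of the head and not in the mesenchyme that forms the vault, and the skin was removed before the vault was taken. Control embryos are labelled wildtype on a mixed strain. By the crosses in the study's methods they lack Cre but inherit the CAGF8 allele with its stop in place, so that all groups share this allele. The vault normally ossifies directly from mesenchyme and the base forms as cartilage. The vault comparison asks how ectodermal Fgf8 changes the forming vault, and the comparisons with the base ask which values of the MCAGF8 vault resemble a cartilage region of the same stage.

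RUNX proteins bind DNA through a shared Runt domain, and CBFβ, the product of Cbfb, is the partner that stabilises this binding. RUNX2 commits mesenchymal cells to the osteoblast fate and also drives hypertrophy of chondrocytes, while RUNX1 is best known from blood stem cells and RUNX3 from sensory neurons and T cells, and both are also expressed in skeletal precursors. SP7 (osterix) is a zinc finger factor that acts after RUNX2 and is required for bone matrix to form. MEF2C promotes both chondrocyte hypertrophy and bone formation and is also a factor of muscle, endothelium and heart. ATF4 is translated under stress and amino acid shortage, and in osteoblasts it serves late differentiation and collagen synthesis.

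In the GENCODE M21 annotation of GRCm38, all 7 are protein-coding. Runx1 (ENSMUSG00000022952) lies at chr16:92601466-92826149 on the minus strand, Runx2 (ENSMUSG00000039153) at chr17:44495987-44814797 on the minus strand, and Runx3 (ENSMUSG00000070691) at chr4:135120652-135177990 on the plus strand. Cbfb (ENSMUSG00000031885) spans chr8:105170674-105217989 on the plus strand. Sp7 (ENSMUSG00000060284) spans chr15:102356606-102367182 on the minus strand. Mef2c (ENSMUSG00000005583) spans chr13:83504034-83667080 and Atf4 (ENSMUSG00000042406) chr15:80255184-80257541, both on the plus strand. The genes are annotated with between 3 transcripts (Sp7 and Atf4) and 31 transcripts (Mef2c), and the table gives 1 value per gene, so isoforms and alternative promoters cannot be told apart.

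The RUNX genes are described first by their start sites, since their promoters hold the site that RUNX proteins themselves bind. RefSeq promoter windows of 300 bases (250 before the start and 50 after it, GRCm38.p6) were matched for 6 of the 7 genes, in 10 windows. The RUNX core TGTGGT, searched on both strands, was in 3 of these 10 windows and in 16.8% of all 32851 windows. Those 3 were the window of Runx2 and the upstream one of the 2 windows of both Runx1 and Runx3. In all of them the core stood as a tandem, ACCACANNACCACA, which was in 7 of all windows (0.021%), and the other 4 windows belong to Gm12236, Gm15462, Gm16225 and Olfr24. The tandem began 28 bases after the start site of Runx1, 23 bases after that of Runx2 and 134 bases before that of Runx3, and Runx2 held 1 more core 80 bases before its start. The stretches below are printed 5′ to 3′ on the strand of the gene because they show the match between the family members, with the cores in capitals.
Runx1 (chr16:92826025-92826054): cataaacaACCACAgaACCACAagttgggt
Runx2 (chr17:44814583-44814612): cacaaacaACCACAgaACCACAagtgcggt
Runx3 (chr4:135120503-135120532): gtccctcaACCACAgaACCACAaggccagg
The bases between the cores and directly after the second core were the same in the 3 genes. A match is a description of the sequence and says nothing of binding in these tissues.

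By the study's methods, base tissue was taken from control embryos that also gave vault tissue, so these groups are not independent sets of embryos, and which pools share embryos is not stated. Depth is not known from FPKM, and the FPKM of a library summed to 793249 to 1315982. Markers of the labelled tissues were checked before the genes were compared. The 8 osteoblast markers summed to 3934 to 7090 FPKM in the control vault, 2184 to 2888 in the MCAGF8 vault and 933 to 2272 in the base. Col1a1 exceeded the 7 other markers together in each library except base replicate 3, where it was at 1013 FPKM. Those 7 markers summed to 1270 to 3178 FPKM in the control vault, 82.2 to 222 in the MCAGF8 vault and 433 to 1259 in the base, so that without Col1a1 the MCAGF8 vault was lowest. The 8 chondrocyte markers summed to 7648 FPKM in base replicate 2. In base replicates 1 and 3 they summed to 599 and 1045, below each of the 6 vault libraries (1454 to 3886), although the study took the base as cartilage. Col10a1, of hypertrophic cartilage, was at 115 and 74.2 FPKM in these 2 libraries and at most 2.05 in the vaults. All 5 hypertrophic markers together summed to 284 and 289 FPKM there, 154 to 288 in the control vault and 95.9 to 131 in the MCAGF8 vault. Base replicates 1 and 3 held 10949 and 4523 FPKM of the 8 skeletal muscle markers against 1628 in replicate 2. Control vault replicate 2 also stood apart, with the lowest osteoblast sum and the highest muscle sum (5473 FPKM) of its group. No marker in these lists was at 0 in any library. In these bulk samples fewer cells of a type and less RNA per cell cannot be told apart.

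Of the 7 genes, Sp7 and Mef2c were lower in the MCAGF8 vault than in the control vault, and the 5 others did not pass the test. Calls needed a limma p below 0.05 on log2(FPKM + 1) and, after Benjamini-Hochberg adjustment over all genes tested, a value below 0.1. The 2 called genes stand beside 0.604% of all genes called in this comparison, 0.374% lower and 0.23% higher. The study had itself named both genes from the same libraries, so their count is not independent evidence. Apart from these libraries, the study also reported less Sp7 in the MCAGF8 vault by in situ hybridization on sections at E14.5. In the base against the control vault 1 of 7 genes was called, Runx2, which was lower, beside 3.06% of all genes (1.21% lower and 1.85% higher). Between the MCAGF8 vault and the base 1 of 7 was called, Mef2c, which was lower in the MCAGF8 vault, beside 8.39% of all genes (5.41% lower and 2.98% higher). The direction of calls with the base depended on scaling. The called genes were 347 higher and 226 lower in the base than in the control vault, but 236 and 390 after quantile normalization. In the MCAGF8 vault 558 genes were called above the base and 1013 below it, but 1153 and 810 after quantile normalization, 771 and 828 after rescaling to a common sum and 880 and 936 after rescaling to a common median, while the called differences of Runx2 and Mef2c kept their direction. An unadjusted p under 0.05, the share to read beside such counts for gene lists, was reached by 6.34%, 12.8% and 19.64% of all genes in the 3 comparisons. Groups were fully separated, with no overlap between their libraries, for 3, 2 and 4 of the 7 genes in the 3 comparisons, beside 19.2%, 15.5% and 21.9% of all genes. The median difference of the 7 genes was -0.24, 0.03 and -0.40 on the log2 scale, beside -0.01, 0.07 and -0.07 for all genes tested.

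**Figure D1:**
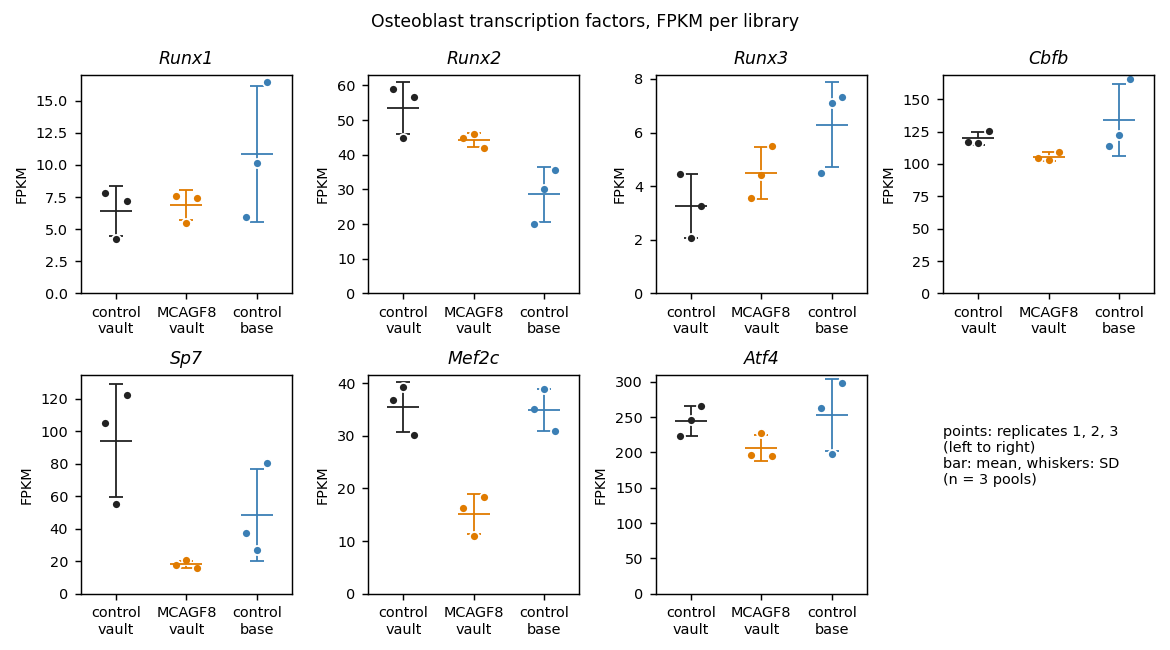
FPKM (vertical axes, from 0) of each of the 7 genes in the 3 libraries of each group, with replicates 1, 2 and 3 from left to right, the mean as a bar and the SD as whiskers (n = 3 pools). Sp7 lies between 16.0 and 20.6 FPKM in the MCAGF8 vault and between 55.4 and 123 in the control vault, while Runx2 stays between 42.0 and 59.0 in both.

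The order of the levels differed between the groups. In the control vault the mean FPKM fell from Atf4 (244) over Cbfb (120), Sp7 (94.3), Runx2 (53.5), Mef2c (35.4) and Runx1 (6.41) to Runx3 (3.28). Of the neighbours in that order, Cbfb and Sp7, Sp7 and Runx2, and Runx1 and Runx3 overlapped between libraries. In the MCAGF8 vault Runx2 (44.3) stood above Sp7 (18.1) and Mef2c (15.2), and the ranges of the latter pair overlapped. In the base Sp7 (48.3), Mef2c (34.9) and Runx2 (28.6) had overlapping ranges. Atf4 and Cbfb were the highest of the 7 genes, and Runx1 and Runx3 the lowest, in all 3 groups by mean FPKM.

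Runx2, the factor that starts the osteoblast program, was at 42.0 to 59.0 FPKM in the 6 vault libraries and was lower in the base. Its FPKM was 59.0, 44.8 and 56.6 in control vault replicates 1, 2 and 3, 44.9, 45.9 and 42.0 in the MCAGF8 vault, and 20.0, 30.2 and 35.7 in the base. Both vaults shared a range, and each base library lay below each vault library. The MCAGF8 vault differed from the control vault by -0.26 ± 0.22 (SE) on the log2(FPKM + 1) scale, with a 95% interval of -0.75 to 0.24 and an adjusted p of 0.969, and so a fall of up to 0.75 was within the interval. In the base Runx2 was lower than in the control vault by -0.91 ± 0.22 (interval -1.40 to -0.41, adjusted p = 0.0898), and its mean was 1.87-fold lower. The difference of 0.65 ± 0.22 between the MCAGF8 vault and the base had an unadjusted p of 0.0159 and did not pass after adjustment (adjusted p = 0.142).

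The call of Runx2 in the base was kept without base replicate 1, 2 or 3 in turn (adjusted p = 0.0927, 0.0679 and 0.0779). It was lost without control vault replicate 1, 2 or 3 (adjusted p = 0.266, 0.156 and 0.302) and without MCAGF8 replicate 1, 2 or 3 (adjusted p = 0.166, 0.125 and 0.141), and the difference stayed between -0.68 and -1.08. Runx2 was higher in the MCAGF8 vault than in the base by a called difference without base replicate 2 (0.71, adjusted p = 0.0823) or base replicate 3 (0.82, adjusted p = 0.0935).

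The antisense gene Runx2os1 overlaps exons of Runx2, and since no source states whether counting used strand, reads of both cannot be told apart with certainty. Runx2os1 was at 3.06, 3.61 and 2.85 FPKM in the control vault, 4.48, 5.43 and 5.42 in the MCAGF8 vault, and 1.36, 2.27 and 1.31 in the base. Its libraries were higher in the MCAGF8 vault than in either other group with no overlap. The rise over the base was called (1.22 ± 0.22, adjusted p = 0.0157), whereas the difference between the vaults was not (0.55 ± 0.22, adjusted p = 0.689). Runx2os1 stood at 0.0999, 0.118 and 0.129 of the Runx2 level in the MCAGF8 vault, at 0.0504 to 0.0806 in the control vault and at 0.0367 to 0.0752 in the base.

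Runx1 and Runx3 were minor members of the family in these tissues, and neither was called in a comparison. Runx1 was at 7.84, 4.20 and 7.18 FPKM in the control vault, 7.59, 5.51 and 7.46 in the MCAGF8 vault, and 5.95, 10.2 and 16.4 in the base. The 3 groups overlapped, and the vaults differed by 0.11 with an interval of -0.67 to 0.89. Runx3 was at 4.47, 2.08 and 3.28 FPKM in the control vault, 3.55, 4.43 and 5.50 in the MCAGF8 vault, and 4.48, 7.10 and 7.31 in the base. Each base library was above each control vault library for Runx3, a difference of 0.78 ± 0.29 with an unadjusted p of 0.0216 and an adjusted p of 0.256.

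As shares of the summed Runx1, Runx2 and Runx3 FPKM, the family had another makeup in the base. Runx2 made up 82.7%, 87.7% and 84.4% of the sum in the control vault, 80.1%, 82.2% and 76.4% in the MCAGF8 vault, and 65.7%, 63.6% and 60.0% in the base. The base lay below both vaults with no overlap, and the MCAGF8 vault below the control vault with no overlap. Runx1 made up 8.23% to 11.0% in the control vault, 9.87% to 13.6% in the MCAGF8 vault and 19.5% to 27.7% in the base. Runx3 made up 4.08% to 6.27%, 6.34% to 10.0% and 12.3% to 14.9% in the same order, with no overlap between the groups. The summed FPKM itself overlapped between all groups and was 51.1 to 71.3 in the control vault, 55.0 to 56.0 in the MCAGF8 vault and 30.4 to 59.4 in the base. With 3 libraries against 3, an exact two-sided permutation test of such a share cannot go below 0.1, and none was used to call a share.

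**Figure D2:**
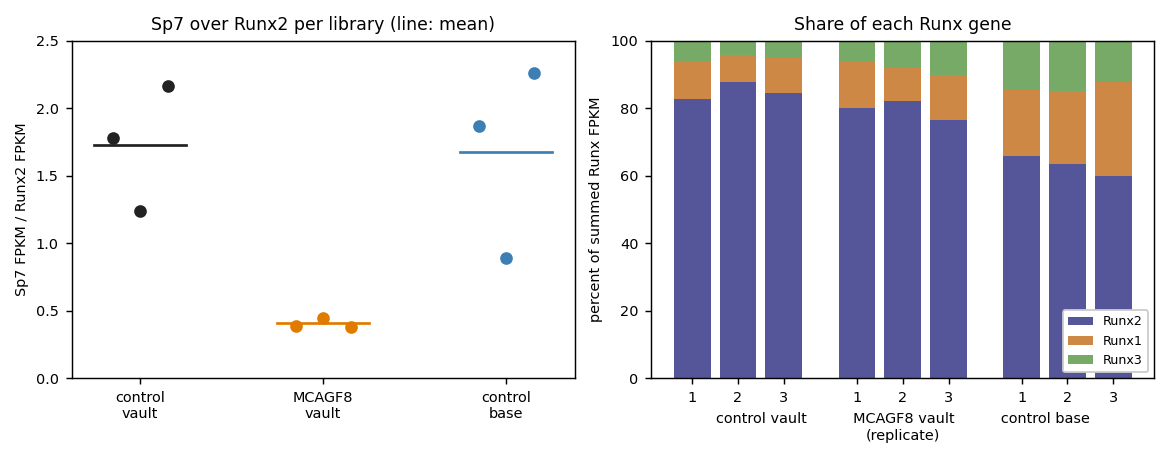
The left panel plots Sp7 FPKM divided by Runx2 FPKM in each library (points) with the mean of each group (line), and the right panel the percent of the summed Runx FPKM that each Runx gene made up in each library (stacked bars from 0 to 100). The ratio is 0.382 to 0.450 in the MCAGF8 vault and 1.24 to 2.17 in the control vault, and the Runx2 share is lowest in the 3 base libraries.

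Cells other than skeletal ones express Runx1 and Runx3, and 3 marker lists for such cells were read beside them. Of the 8 markers of neurons and sensory ganglia 7 were in the table. They summed to 26.4 to 79.0 FPKM in the control vault, 47.3 to 90.2 in the MCAGF8 vault and 297 to 1231 in the base. In the base 4 of 7 were called higher than in the control vault (2 of 7 without any 1 control vault library), beside 1.85% of all genes. The 6 epidermal markers summed to 8.58 to 86.2 FPKM in the control vault, 374 to 690 in the MCAGF8 vault and 61.6 to 669 in the base. All 6 had positive differences in the base against the control vault, with a median of 2.44 and an unadjusted limma p under 0.05. With all libraries 0 of 6 were called, but 5 were called without base replicate 2, and 1 without control vault replicate 2 or MCAGF8 replicate 3. Markers of macrophages and myeloid cells summed to 130 to 167, 131 to 217 and 76.8 to 151 FPKM in the same order of groups. Of these 2 of 7 were called lower in the base than in the control vault, beside 1.21% of all genes. The part of these cell types in the Runx1 and Runx3 values was not tested. Base replicate 3 had the highest neuron sum and also the highest FPKM of Runx1 and Runx3, but it was the highest base library for 6 of the 7 genes. Base replicate 2 had the lowest neuron sum of the base (297 FPKM), with Runx1 at 10.2 and Runx3 at 7.10 FPKM. Both genes were lower in base replicate 1 (5.95 and 4.48 FPKM), where the neuron sum was 329 FPKM.

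Cbfb, which encodes the common partner CBFβ, was the most even of the RUNX components. Its FPKM was 117, 116 and 126 in the control vault, 105, 103 and 109 in the MCAGF8 vault, and 114, 122 and 166 in the base. Each MCAGF8 library lay below each library of both other groups, yet the differences were small, -0.18 ± 0.18 from the control vault (adjusted p = 0.969) and -0.32 ± 0.18 from the base (adjusted p = 0.359). Between base and control vault the interval was -0.25 to 0.54. Cbfb exceeded the summed RUNX level in each library, at a ratio of 1.64 to 2.28 in the control vault, 1.85 to 1.99 in the MCAGF8 vault and 2.57 to 3.74 in the base. The ratio in the base was above both vaults with no overlap.

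None of 10 genes for coactivators of RUNX2 was called between the vaults. All 10 had positive differences in the MCAGF8 vault, also after quantile normalization or rescaling, with a median of 0.33 beside -0.01 for all genes, and 1 had an unadjusted p under 0.05. Against the base all 10 were again positive and 2 of 10 were called higher, beside 2.98% of all genes. These were Smad3, a transducer of TGF-β signals (1.20, adjusted p = 0.0178), and Wwtr1, which encodes the Hippo effector TAZ (0.60, adjusted p = 0.0758). Smad3 was at 50.8, 57.2 and 67.7 FPKM in the control vault, 77.9, 90.5 and 56.1 in the MCAGF8 vault, and 25.2, 36.0 and 34.3 in the base. Without any 1 library other than base replicate 2 the count against the base was 1 of 10, and without base replicate 2 it was 5. In the base against the control vault no coactivator was called and 1 had an unadjusted p under 0.05, while Smad3 was called lower without base replicate 2 (-0.96, adjusted p = 0.0669), after quantile normalization (-0.87, adjusted p = 0.0694) and after rescaling to a common median (-0.97, adjusted p = 0.0740).

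The 19 genes for corepressors of RUNX proteins likewise held no call between the vaults, where 4 had an unadjusted p under 0.05. Tle1, of the Groucho family that RUNX proteins recruit, was at 21.0, 24.1 and 22.2 FPKM in the control vault, 38.5, 47.5 and 28.3 in the MCAGF8 vault, and 30.9, 41.1 and 42.7 in the base. The control vault lay below both other groups with no overlap, by 0.71 (adjusted p = 0.390) and 0.73 (adjusted p = 0.157), and neither difference was called. The differences between the vaults were 0.58 for Tle2, 0.20 for Tle3, 0.40 for Tle4, -0.08 for Tle6 and -0.22 for Aes, with an adjusted p of at least 0.958. Hey1, a Notch target that can repress RUNX2, was called between the MCAGF8 vault and the base (-1.27, adjusted p = 0.0274), as 1 of 19 genes beside 8.39% of all genes. It was at 9.19, 12.8 and 10.5 FPKM in the MCAGF8 vault, 23.6, 24.4 and 35.3 in the base and 22.7, 12.7 and 22.6 in the control vault. No corepressor was called in the base against the control vault, where 2 had an unadjusted p under 0.05, and 1 was called without base replicate 1. The count against the base was 0 without MCAGF8 replicate 1 and 4 without base replicate 2.

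Sp7 fell most among the 7 genes in the MCAGF8 vault. It was at 105, 55.4 and 123 FPKM in control vault replicates 1, 2 and 3, at 17.5, 20.6 and 16.0 in the MCAGF8 vault, and at 37.4, 26.9 and 80.5 in the base. Each MCAGF8 library was below each library of both other groups, and the control vault and base overlapped. The mean was 5.22-fold lower in the MCAGF8 vault than in the control vault, a limma log2 difference of -2.25 ± 0.40 (interval -3.15 to -1.35, adjusted p = 0.0763). Against the base the MCAGF8 vault was lower by -1.23 ± 0.40 with an unadjusted p of 0.0128, which did not pass after adjustment (adjusted p = 0.127). The base differed from the control vault by -1.03 ± 0.40 with an unadjusted p of 0.0294 and an adjusted p of 0.299.

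The call of Sp7 between the vaults was kept without control vault replicate 2 (-2.59, adjusted p = 0.0473), base replicate 2 (adjusted p = 0.0277) or base replicate 3 (adjusted p = 0.0587). It was lost without MCAGF8 replicate 1, 2 or 3 (adjusted p = 0.324, 0.245 and 0.212), control vault replicate 1 or 3 (adjusted p = 0.220 and 0.218) or base replicate 1 (adjusted p = 0.111), with differences of -2.03 to -2.59 in all 9 cases. Against the base, the difference of Sp7 was called without base replicate 2 (-1.56, adjusted p = 0.0266).

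The ratio of Sp7 to Runx2 was lowest in the MCAGF8 vault. There were 1.78, 1.24 and 2.17 FPKM of Sp7 for each FPKM of Runx2 in the control vault, 0.390, 0.450 and 0.382 in the MCAGF8 vault, and 1.87, 0.890 and 2.26 in the base. The MCAGF8 vault lay below both other groups with no overlap, and the control vault and base overlapped. The osteoblast markers moved with Sp7. All 8 had negative differences between the vaults, and 5 of 8 were called, beside 0.374% of all genes called lower. The count was 2 without control vault replicate 1 or 3 or MCAGF8 replicate 1, and 3 without MCAGF8 replicate 2 or 3. Against the base 7 of 8 had negative differences in the MCAGF8 vault, with a median of -2.04 beside -0.07 for all genes. Of the 8, 4 were called lower and Col1a1 was called higher, beside 5.41% and 2.98% of all genes. The part of osteoblast number in the Sp7 difference was not tested.

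**Figure D3:**
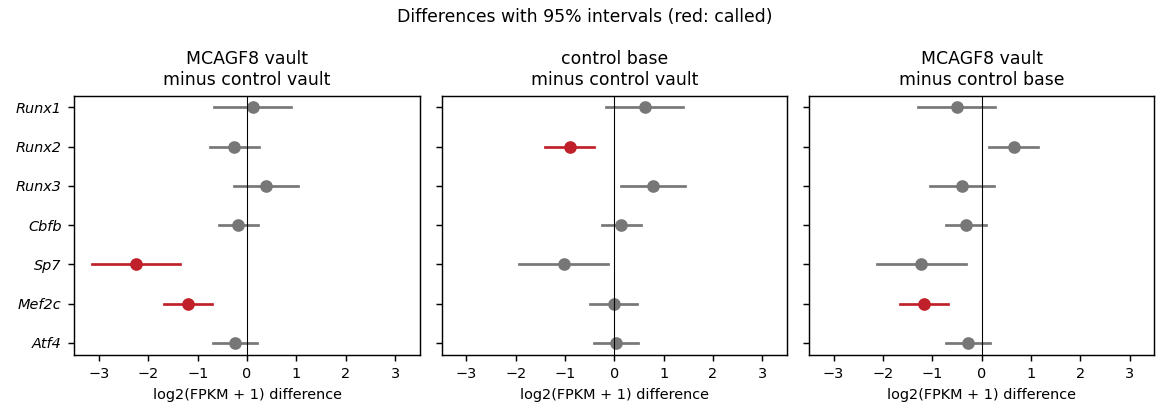
Differences of the 7 genes on the log2(FPKM + 1) scale (horizontal axis) with their 95% intervals in the 3 comparisons, with called genes in red. Sp7 and Mef2c are called between the vaults, Runx2 between base and control vault, and Mef2c between MCAGF8 vault and base.

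Of 8 relatives of Sp7 listed, 7 were tested and all 7 had positive differences between the vaults, under each scaling tried as well. Sp8, which was too low to be tested, was at 1.90, 0.013 and 1.13 FPKM in the control vault, at 0.012 in MCAGF8 replicate 1, and listed at 0 in MCAGF8 replicates 2 and 3. Sp5, a target of Wnt signalling, was called (1.73, adjusted p = 0.0723), from 0.77, 0.39 and 0.81 FPKM in the control vault to 4.02, 6.37 and 3.44 in the MCAGF8 vault. It was also higher there than in the base (1.18, adjusted p = 0.0554), where it was at 1.27, 2.40 and 0.81 FPKM. Sp9 was called only against the base (1.33, adjusted p = 0.0238), at 2.69, 1.21 and 1.22 FPKM in the MCAGF8 vault and no more than 0.08 in the base. No relative was called in the base against the control vault, where none had an unadjusted p under 0.05. The call of Sp5 between the vaults was lost without any 1 vault library (adjusted p = 0.125 to 0.290). Against the base neither gene was called without MCAGF8 replicate 1, and Sp5 was lost without MCAGF8 replicate 2, base replicate 1 or base replicate 3 too. Sp5 and Sp9 are expressed in ectoderm, and the 6 epidermal markers were higher in each MCAGF8 library than in each control vault library. Their part in these differences was not tested.

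Bone genes known to respond to RUNX2 or SP7 were mostly lower in the MCAGF8 vault. Of 18 listed genes 17 had negative differences between the vaults, 12 had an unadjusted p under 0.05 and 6 were called, all lower, beside 0.374% of all genes called lower, and the median was -1.89 beside -0.01 for all genes. The study had reported several of these genes from the same libraries, and the list shares genes with the osteoblast markers. The largest called differences were those of Ibsp (-5.81, adjusted p = 0.0146), Spp1 (-5.01, adjusted p = 0.0158), Dmp1 (-4.69, adjusted p = 0.0723) and Ifitm5 (-3.84, adjusted p = 0.0385), of which the first 3 encode acidic phosphoproteins of bone matrix. Ibsp was at 1487, 679 and 1527 FPKM in the control vault, 11.5, 50.7 and 12.5 in the MCAGF8 vault, and 189, 199 and 638 in the base. Bglap2, an osteocalcin gene, was listed at 0 in all 3 MCAGF8 libraries and at 19.3, 2.71 and 16.5 FPKM in the control vault, and Bglap and Bglap2 are near-identical copies whose reads can be split.

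The genes for the 2 chains of type I collagen, also on the list, were not called between the vaults. Col1a1 was at 3675, 2664 and 3912 FPKM in the control vault, 2523, 2666 and 2102 in the MCAGF8 vault, and 500, 629 and 1013 in the base. The vaults overlapped (-0.48, adjusted p = 0.969). Col1a1 and Col1a2 were called lower in the base than in the control vault (-2.30 and -2.14, adjusted p = 0.0160 and 0.0157) and higher in the MCAGF8 vault than in the base (1.82 and 1.91, adjusted p = 0.0188 and 0.0113).

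Against the base, 9 of 18 genes were called lower in the MCAGF8 vault and 2 higher, beside 5.41% and 2.98% of all genes. The median was -1.34 beside -0.07 for all genes. The lowest of these genes was Col10a1, the collagen of hypertrophic cartilage (-7.00, adjusted p = 0.00171), at 115, 658 and 74.2 FPKM in the base and 0.43, 0.35 and 0.44 in the MCAGF8 vault. In the base against the control vault 3 of 18 were called lower and Col10a1 was called higher (6.20, adjusted p = 0.00386), beside 1.21% and 1.85% of all genes. The median there was -1.24 beside 0.07 for all genes. Left-out libraries changed the count between the vaults from 6 to 2 (without control vault replicate 1 or 3, or MCAGF8 replicate 1), 3 (without MCAGF8 replicate 2 or 3), 5 (without base replicate 1) or 8 (without control vault replicate 2, base replicate 2 or base replicate 3). Against the base the count was 7 without MCAGF8 replicate 1 or 3 and 8 to 11 otherwise.

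**Figure D4:**
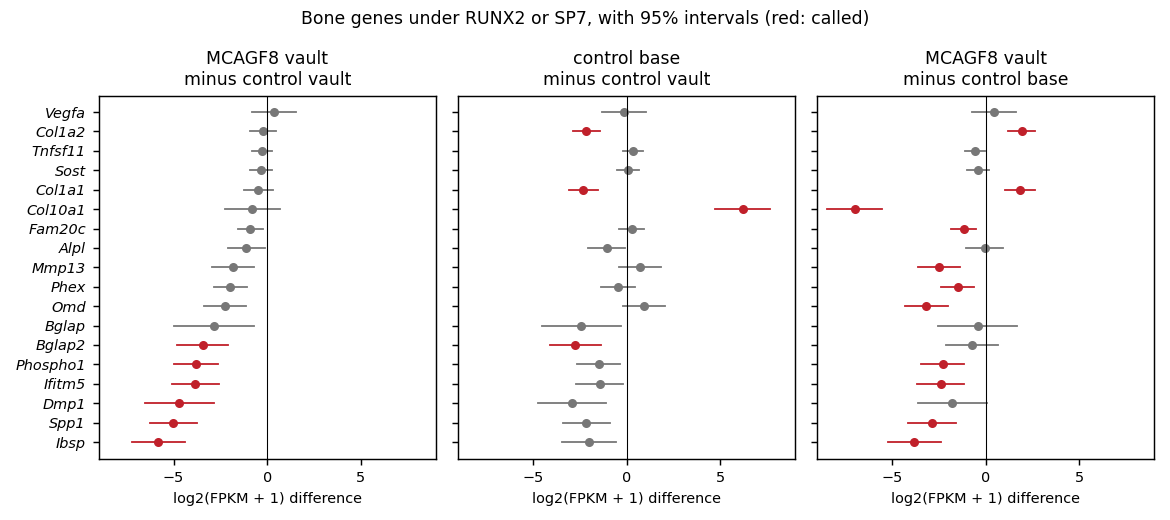
Differences of the 18 bone genes on the log2(FPKM + 1) scale (horizontal axis) with 95% intervals in the 3 comparisons, ordered by the difference between the vaults, with called genes in red. Ibsp, Spp1 and Dmp1 are lowest in the MCAGF8 vault against the control vault, and Col1a1 and Col1a2 are called lower in the base against the control vault.

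The RUNX core was in the promoter windows of 4 of the 16 bone genes that had a window, namely Bglap, Dmp1, Mmp13 and Spp1, and in 18.9% of all 27025 genes with a window. Spp1 and Dmp1 were called lower in the MCAGF8 vault. A core was in the upstream window of Spp1 and in the downstream window of Dmp1, and the other window of each held none. These cores began 128 and 164 bases before the start site of their window. The stretches around both cores, from the part of the window before its start site and on the plus strand of GRCm38.p6, show a single core each (capitals) in place of the tandem of the RUNX genes.
Spp1 (chr5:104434943-104435028): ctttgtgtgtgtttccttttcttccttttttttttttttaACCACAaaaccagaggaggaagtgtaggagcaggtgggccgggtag
Dmp1 (chr5:104202413-104202498): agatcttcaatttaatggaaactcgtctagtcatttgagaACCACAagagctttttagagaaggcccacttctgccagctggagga
Ibsp, with the largest fall, had no core in its window.

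Mef2c was the 1 of 7 genes that was called lower in the MCAGF8 vault against both other groups. It was at 36.8, 39.2 and 30.2 FPKM in the control vault, 16.2, 11.0 and 18.4 in the MCAGF8 vault, and 35.0, 38.8 and 31.0 in the base. All MCAGF8 libraries were below all others, and control vault and base shared a range, with a difference of -0.02 and an interval of -0.50 to 0.47. The mean was 2.33-fold lower than in the control vault (limma, -1.19 ± 0.22, interval -1.67 to -0.71, adjusted p = 0.0768) and 2.30-fold lower than in the base (-1.17 ± 0.22, adjusted p = 0.0162). These 2 comparisons share the MCAGF8 libraries.

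The call against the base was kept without each of the 9 libraries in turn (adjusted p = 0.0178 to 0.0650). The call against the control vault was kept only without base replicate 2 (adjusted p = 0.0469). It was lost without control vault replicate 1, 2 or 3 (adjusted p = 0.230, 0.176 and 0.189), MCAGF8 replicate 1, 2 or 3 (adjusted p = 0.324, 0.245 and 0.122) and base replicate 1 or 3 (adjusted p = 0.106 and 0.107), with differences of -0.99 to -1.33.

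Markers of skeletal muscle, a tissue that also expresses Mef2c, were lower in the MCAGF8 vault too. All 8 muscle markers had negative differences there. Between the vaults 6 of 8 were called, beside 0.374% of all genes called lower, and against the base 8 of 8, beside 5.41%. Without 1 library, however, the count between the vaults was 0 (any control vault library, MCAGF8 replicate 1 or 2, or base replicate 3), 3 (base replicate 1), 5 (MCAGF8 replicate 3) or 8 (base replicate 2). The markers summed to 853, 5473 and 1494 FPKM in the control vault, 16.7, 39.6 and 177 in the MCAGF8 vault, and 10949, 1628 and 4523 in the base. Within the control vault the muscle sum differed 6.41-fold between libraries and Mef2c 1.30-fold, and within the base the muscle sum differed 6.72-fold and Mef2c 1.25-fold. The endothelial markers, of another cell type with Mef2c, summed to 243 to 284 FPKM in the control vault, 283 to 396 in the MCAGF8 vault and 201 to 230 in the base. The part of muscle in the difference between the groups was not tested.

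**Figure D5:**
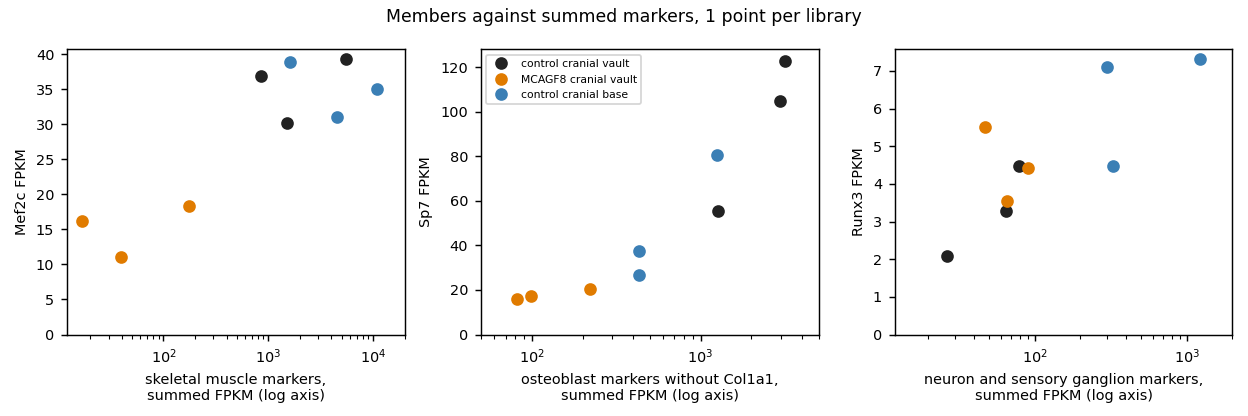
FPKM of Mef2c, Sp7 and Runx3 (vertical axes, from 0) against the summed FPKM of the skeletal muscle, osteoblast (7 markers, without Col1a1) and neuron markers (horizontal log axes), with 1 point per library coloured by group. Mef2c is between 30.2 and 39.2 FPKM in the 6 control libraries, whose muscle sums run from 853 to 10949, and the MCAGF8 libraries are lowest on both axes for Mef2c and for Sp7.

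The other MEF2 genes did not change by a called difference. Mef2d kept 36.2 to 43.5 FPKM in all 9 libraries, and differed by 0.03 between the vaults. Mef2a ranged from 18.1 to 49.8 FPKM with overlapping groups and a difference of -0.03. Mef2b, a low gene, was at 4.38, 0.39 and 3.48 FPKM in the control vault and 0.44, 0.03 and 0.03 in the MCAGF8 vault (-1.49, unadjusted p = 0.00992, adjusted p = 0.397), and these ranges overlapped. Without control vault replicate 2 Mef2b was called lower than in the control vault in both the MCAGF8 vault (-2.09, adjusted p = 0.0323) and the base (-1.58, adjusted p = 0.0693). Genes for class IIa histone deacetylases, which bind and repress MEF2 proteins, and for the kinases that act on them held no call between the vaults in 11 genes, and 1 had an unadjusted p under 0.05. Against the base Sik3, a kinase of these deacetylases, was called higher (0.57, adjusted p = 0.0997), a call that was lost without any 1 library other than base replicate 2. In the base against the control vault none was called and 1 had an unadjusted p under 0.05.

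Atf4 was the highest of the 7 genes and was not called in a comparison. It was at 223, 245 and 265 FPKM in the control vault, 197, 227 and 195 in the MCAGF8 vault, and 262, 198 and 299 in the base, and the groups overlapped. The vaults differed by -0.24 ± 0.20 (interval -0.69 to 0.21, adjusted p = 0.969), and base and control vault by 0.03 (interval -0.42 to 0.48). ATF4 is regulated largely at translation, which FPKM do not measure, so genes that ATF4 activates were read beside it.

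Of 32 such genes for amino acid synthesis, transport, tRNA charging and stress, 31 were tested. Between the vaults 24 of 31 had negative differences, with a median of -0.20 beside -0.01 for all genes, but 1 was called and 4 had an unadjusted p under 0.05. After rescaling each library to a sum of 1000000 the split was 16 negative and 15 positive, with a median of -0.03. It was 22 negative and 9 positive after quantile normalization (median -0.14). With a common median it was 24 negative and 7 positive (median -0.20), and 0 were called. The called gene was Nupr1, a stress-induced chromatin protein, at 77.1, 63.4 and 96.0 FPKM in the control vault, 25.7, 29.6 and 25.9 in the MCAGF8 vault, and 63.5, 28.4 and 43.9 in the base (-1.49, adjusted p = 0.0853). Its call was lost without any 1 vault library (adjusted p = 0.104 to 0.376) and without base replicate 3 (adjusted p = 0.138). In the comparisons with the base 0 of 31 were called by limma, and 3 in each had an unadjusted p under 0.05, although 5 were called between the MCAGF8 vault and the base and 2 between base and control vault without base replicate 2, and 1 in the latter without base replicate 1. Nupr1 was called lower in the base than in the control vault after rescaling to a sum of 1000000 (-0.88, adjusted p = 0.0598), and Mthfd2 lower in the MCAGF8 vault than in the base after quantile normalization (-0.51, adjusted p = 0.0877). The genes that sense stress upstream of ATF4 held no call and no unadjusted p under 0.05 among 8 in the 3 comparisons, and 3 were called between the MCAGF8 vault and the base without base replicate 2. The letters TGATGNAA of the C/EBP-ATF response element, on either strand, were in windows of 10 of the 26 target genes that had a window, Nupr1 among them, and in 4.51% of all genes with a window.

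Among transcription factors listed as acting with or before RUNX2, a call between the vaults depended on the setting. Of 24 listed 23 were tested, 13 had positive and 10 negative differences, 8 had an unadjusted p under 0.05 and 0 were called by limma. Twist2, which restrains RUNX2, was also named by the study. The control vault and MCAGF8 vault libraries of Twist2 were 28.8, 39.6 and 36.5 FPKM and 97.5, 120 and 109 FPKM (1.62, adjusted p = 0.110), with no overlap. Twist2 was called after rescaling to a sum of 1000000 (1.79, adjusted p = 0.0245), quantile normalization (1.69, adjusted p = 0.0970) and with a pseudocount of 0.1 or 0.01 (adjusted p = 0.0853 and 0.0890), with the 6 vault libraries alone (adjusted p = 0.0207), and without base replicate 1 or 2 (adjusted p = 0.0754 and 0.0132). Dlx6 was called lower without control vault replicate 2 (-2.65, adjusted p = 0.0369). Against the base 9 of 23 were called, all higher in the MCAGF8 vault, beside 8.39% of all genes called and 2.98% called higher, and 9 were called under each of the 3 other scalings too. The calls were led by Msx2 (3.19, adjusted p = 0.000122), Msx1 (2.61, adjusted p = 0.0476), Alx4 (2.47, adjusted p = 0.0123) and Twist2 (1.97, adjusted p = 0.0116). Msx2 and Alx4, both vault patterning genes, were also called lower in the base than in the control vault (-2.63 and -2.21, adjusted p = 0.000825 and 0.0418). The count against the base was 5 without MCAGF8 replicate 1 or 2 and 6 without MCAGF8 replicate 3, and in the base against the control vault it was 1 without control vault replicate 1 or 3 and 5 without base replicate 3.

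Lastly, each gene was set beside those of the 12934 genes with a mean of at least 5 FPKM whose log2(FPKM + 1) followed it most closely over the 9 libraries. These correlations are across libraries of 3 groups that share differences in tissue makeup, and they are descriptions without a test. For Sp7 they were Ifitm5 (Pearson r = 0.989), an osteoblast membrane protein gene, Cgref1 (0.986) and Tcf7 (0.972), a Wnt effector. For Runx2 they were Cercam (0.979), Pakap (0.976) and Ano6 (0.974), and for Mef2c Fignl1 (0.944), Ccdc141 (0.935) and Ap1s2 (0.932). Atf4 was followed by Zmynd19 (0.992), Sod1 (0.990) and Cct7 (0.990), Cbfb by Tinf2 (0.959), Ndrg4 (0.950) and Nek2 (0.945), Runx1 by Lrrc8b (0.953) and Gnao1 (0.947), and Runx3 by Igsf9 (0.944) and Esrp1 (0.926). Esrp1 is a splicing factor of epithelia and Gnao1 is abundant in neurons. No gene appeared among the nearest of 2 members. Among the 7 genes themselves, Runx1 and Runx3 had an r of 0.811, and Sp7 had an r of 0.316 with Runx2 and 0.645 with Mef2c.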

How the data were processed

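RNAseq was performed by the authors on 9 libraries (stranded mRNA preparation, single-end reads), aligned with gSNAP and quantified with Cufflinks. Their versions, the genome build and the annotation are not stated in the labels or methods. The deposited FPKM values were used as given. In the table of 43611 rows, 63 rows that repeat an identifier were summed, and 9 genes with a placeholder value in 17 cells were left out. Symbols were found for 42375 of 43548 identifiers. No read counts are given, so depth is unknown, and precision is described by the SD of 3 pools. The p-values measure the spread between these pools. By the methods, control embryos gave both vault and base tissue.

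Genes with a mean of at least 0.5 FPKM were fitted as log2(FPKM + 1) with limma 3.58.1 in R 4.3.3 (1 mean per group over 9 libraries, eBayes with trend, two-sided). The study used an ANOVA in R. A fold is a ratio of mean FPKM, and a difference on the log2(FPKM + 1) scale understates the change of low genes. The fit was first tested on simulated data. Python 3.11.15, pandas 2.3.3 and matplotlib 3.10.9 were used for tables and plots, and promoter windows came from RefSeq (GRCm38.p6).

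Members, 9 lists and 10 marker lists were chosen with earlier results of these data known. By the naming rule, the text names from each list the called genes (up to 4, by size of difference), otherwise up to 2 of the highest level, all Mef2 and Tle genes, and the 3 genes most similar to each member. Bglap2, Col1a1, Col1a2, Tle1, Sp8, Twist2, Dlx6 and Mthfd2, where outside this rule, were added after their values were seen. A few genes that the rule names are not reported here. The 23 other settings are described in the closing section.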

Additional observations from a re-analysis of the deposited data

How the results depend on the processing

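The precision of these results is limited by 3 pools per group and an unknown depth, and low genes such as Runx3, Sp5 and Bglap2 rest on few FPKM. The called genes numbered 113 between the vaults, 573 between base and control vault and 1571 between the MCAGF8 vault and the base, with 2, 1 and 1 of the 7 genes. With 1 library left out these became 11 to 273, 130 to 1335 and 587 to 4561 genes, with 0 to 2, 0 to 1 and 1 to 3 of the 7, and the highest counts came without base replicate 2. In the vault comparison, a pseudocount of 0.1 or 0.01 gave 191 and 192 genes, no filter 66 genes and 0 of the 7, a filter at 5 FPKM 71 genes, an adjusted p under 0.05 35 genes and 0 of the 7, an unadjusted p alone 1186 genes, a linear model without moderation 0 genes and 0 of the 7 (limma gave 1186 at an unadjusted p under 0.05), FPKM without the log 12 genes and 0 of the 7, the 6 libraries of both vaults alone 264 genes, and rescaling to a sum of 1000000 1 of the 7. Between base and control vault, the filter at 5 FPKM gave 291 genes, the stricter adjusted p 255, an unadjusted p alone 2396 with 3 of the 7, no moderation 257, no log 179 and the 6 libraries alone 139. No filter, the filter at 5 FPKM, the sum of 1000000, the stricter p, no moderation, no log and the 6 libraries alone each left 0 of the 7. Between the MCAGF8 vault and the base, the filter at 5 FPKM gave 834 genes, the stricter p 941, an unadjusted p alone 3675 with 3 of the 7, no moderation 869, no log 529 and the 6 libraries alone 904, while quantile normalization or a common median gave 2 of the 7 and the sum of 1000000 gave 0. The cause of these changes was not tested.

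Libraries with the same number did not deviate together (r between -0.549 and 0.370 over 9 pairs, 2 of them over 0.1), and the library with the own number was the closest in 3 of 18 matches. With the replicate block 19, 234 and 918 genes were called, with 0, 0 and 1 of the 7. Rescaling to a sum of 1000000 moved the median of all genes between the vaults from -0.01 to 0.13 and between the MCAGF8 vault and the base from -0.07 to 0.11.

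Sp7 between the vaults was called in 12 of 23 other settings (adjusted p = 0.0277 to 0.416) and Mef2c in 9 of 23 (0.0469 to 0.418), Runx2 in the base in 9 of 23 (0.0422 to 0.302), and Mef2c against the base in 22 of 23 (0.0145 to 0.134), the exception being the sum of 1000000. None of these 4 differences changed its direction. Differences near 0 did. With 1 library left out, Runx1 between the vaults ran from -0.1256 to 0.2568 (below 0 without control vault replicate 2). Between base and control vault, Cbfb ran from -0.02 to 0.2495 (below 0 without base replicate 3), Mef2c from -0.1248 to 0.0642 (above 0 without base replicate 3 or control vault replicate 1 or 2) and Atf4 from -0.0962 to 0.1984 (below 0 without base replicate 1 or 3 or control vault replicate 1). Atf4 was also at -0.0088 with a sum of 1000000 and -0.0736 with a common median. These were not called in any setting.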

Other observations

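Single libraries set the extremes of several genes at once. Base replicate 3 was the highest base library for 6 of the 7 genes, all but Mef2c, and base replicate 1 was the lowest for Runx1, Runx2, Runx3 and Cbfb. Control vault replicate 2 was the lowest of its group for 5 of the 7, Runx1, Runx2, Runx3, Cbfb and Sp7. Sp7 varied 2.21-fold within the control vault and 2.99-fold within the base but 1.29-fold within the MCAGF8 vault, and Cbfb varied 1.08-fold, 1.46-fold and 1.06-fold in the same groups. The ratio of Mef2c to Runx2 was 0.533 to 0.877 in the control vault, 0.240 to 0.437 in the MCAGF8 vault and 0.868 to 1.75 in the base, with the MCAGF8 vault below both others. The ratio of Mef2c to Sp7 overlapped between all groups.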
